A study of Mus musculus with 28 samples.

Results

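The acetylated regions of mouse chromosome 6 were all peaks placed on that chromosome in 24 deposited peak lists, 12 for histone H3 acetylated at lysine 27 (H3K27ac) and 12 for histone H3 acetylated at lysine 9 (H3K9ac). They numbered 21299 of 447697 peaks. Overlapping peaks of the 12 libraries of a mark were merged, which gave 1600 of 32703 regions for H3K27ac and 997 of 20543 for H3K9ac. A region was tested where all 12 libraries had a peak in it: 543 of 11679 regions for H3K27ac and 461 of 10149 for H3K9ac. The remaining regions had no peak, and so no deposited tag count, in at least 1 library, and they enter below only as gained or lost. The members were chosen by peak calls, which are measured values, and the chromosome was picked with its change between the groups already known, so its place among the chromosomes is described here and not tested.

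The cells were mouse lung adenocarcinoma cells in culture. Sen cells were wild-type and sensitive to blockade of PD-1, the checkpoint receptor of T cells. Res cells were wild-type, resistant, and labelled as treated with PD-1 inhibitors. Res_Ctrl cells were resistant cells with the genotype Control, and Res_shFabp7 cells were resistant cells in which Fabp7, a fatty acid binding protein gene, was knocked down by a short hairpin RNA. The last 2 groups thus share the resistant background, and the sources used here do not say whether a group came from 1 clone. Fabp7 itself lies on another chromosome and had no peak of either mark within 1 kb of an end in any library, so these data give no check of the knockdown. All groups were grown without T cells in RPMI-1640 with serum. Each mark was read in 3 libraries per group, called biological replicates in the labels, and the p-values below measure the spread between those libraries.

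Acetyl groups on lysine 27 and lysine 9 of histone H3 are placed by histone acetyltransferases and removed by deacetylases. H3K27ac marks active promoters and active enhancers, and H3K9ac lies mostly at active promoters. Both are read as signs of an active regulatory element, not as a measure of the transcript. Mouse chromosome 6 carries the receptor gene Met, the Hoxa cluster, a gene-dense stretch with the glycolysis genes Gapdh, Tpi1 and Eno2, and the microRNA pair Mir29a and Mir29b-1.

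Sequences that belong to some of the changed regions are given first. Of 39 microRNA hairpins on the chromosome, 4 lay in a tested region of each mark, and the Mir29a and Mir29b-1 pair on the minus strand, which shares 1 region, had the largest H3K9ac change among them. Their mature 3′ arms, from RefSeq (GRCm38.p6, the mm10 assembly), share the seed AGCACCA, shown in capitals (bases 2 to 8).
mmu-miR-29a-3p: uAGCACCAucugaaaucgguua
mmu-miR-29b-3p: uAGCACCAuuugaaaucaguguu

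The next sequences are the 300 bases from 250 before to 50 after the annotated start of Atoh8, Aqp1 and Anxa4, read 5′ to 3′ on the gene's own strand, from the same RefSeq build. They are shown because these genes had the largest H3K27ac increase, the largest H3K27ac decrease and the largest H3K9ac decrease in Res against Sen. No promoter was listed for Ccnd2, the gene with the largest H3K9ac increase. Capitals mark GGGCGG, the core of the GC box, and CACGTG, the E-box palindrome. Searched on both strands were the TATA box TATAAA, the CCAAT box, that GC box core, the cAMP response element TGACGTCA, that E-box and the AP-1 element TGANTCA.
Atoh8 promoter, chr6:72235528-72235827, minus strand: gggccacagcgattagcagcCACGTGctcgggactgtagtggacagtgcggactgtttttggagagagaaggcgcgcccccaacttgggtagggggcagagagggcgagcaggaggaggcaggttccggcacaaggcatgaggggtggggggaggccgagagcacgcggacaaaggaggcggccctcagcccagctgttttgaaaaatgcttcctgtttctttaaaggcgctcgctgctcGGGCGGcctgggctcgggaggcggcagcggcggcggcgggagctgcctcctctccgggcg
Aqp1 promoter, chr6:55336049-55336348, plus strand: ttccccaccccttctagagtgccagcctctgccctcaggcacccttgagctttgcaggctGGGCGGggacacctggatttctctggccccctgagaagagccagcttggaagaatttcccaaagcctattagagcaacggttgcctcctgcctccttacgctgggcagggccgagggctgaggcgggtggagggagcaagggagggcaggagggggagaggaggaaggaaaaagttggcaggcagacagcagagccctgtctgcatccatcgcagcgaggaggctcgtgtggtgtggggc
Anxa4 promoter, chr6:86793535-86793834, minus strand (2 starts are listed, 1 of them in the region): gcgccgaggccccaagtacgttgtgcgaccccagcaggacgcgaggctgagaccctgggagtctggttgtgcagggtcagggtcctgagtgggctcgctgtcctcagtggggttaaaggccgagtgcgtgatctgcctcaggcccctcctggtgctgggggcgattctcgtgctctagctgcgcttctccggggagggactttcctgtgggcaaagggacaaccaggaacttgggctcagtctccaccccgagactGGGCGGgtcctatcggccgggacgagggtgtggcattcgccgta
GGGCGG is in 35.7% of all 32851 listed promoters and CACGTG in 7.15%, and a match describes the letters in this window, not a bound site. The table matched 320 of the 375 genes with a tested H3K27ac region on the chromosome and 359 of the 421 genes with a tested H3K9ac region.

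Peak numbers ranged from 11771 to 28934 in the 24 lists. Their peaks together contained between 2.24 and 11.5 M tags (M, 1e6), with the fewest H3K27ac tags in Sen replicate 1. H3K27ac tags numbered 2.24 to 5.91 M in Sen and 5.08 to 7.35 M in Res. They numbered 3.70 to 4.65 M in Res_Ctrl and 5.10 to 10.5 M in Res_shFabp7. H3K9ac tags numbered 4.20 to 11.5 M in Sen and 3.02 to 3.89 M in Res. These numbered 2.57 to 4.63 M in Res_Ctrl and 4.84 to 7.19 M in Res_shFabp7. Of 10 lung and epithelial marker genes, 5 had an H3K27ac peak and 6 an H3K9ac peak within 1 kb of an end in all 12 libraries of the mark. Among them were Krt8, Krt18, Krt19, Foxa2 and the lung gene Sftpc. The lung lineage genes Nkx2-1 and Napsa had such a peak in 0 libraries. Sftpb had one in 6 H3K27ac and 0 H3K9ac libraries, and Epcam in 1 and 4. Of 5 immune markers, Cd79a and Cd68 had a peak in all 12 libraries and Ptprc, Cd3e and Lyz2 in 0, and 0 of 4 fibroblast and 0 of 4 endothelial markers had one in all 12. The fibroblast marker Col1a1 had a peak in 11 H3K27ac and 8 H3K9ac libraries.

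A smaller share of the acetylation tags of resistant cells lay on chromosome 6. For H3K27ac, 5.03%, 5.20% and 5.17% of the tags in peaks were on chromosome 6 in Sen, and 3.80%, 3.71% and 3.64% in Res. The same share was 3.75%, 3.77% and 3.89% in Res_Ctrl, and 4.30%, 4.39% and 4.40% in Res_shFabp7. Thus all 9 resistant libraries lay below all 3 Sen libraries, Res and Res_Ctrl overlapped, and the 3 knockdown libraries lay between Res_Ctrl and Sen without overlap with either. The means were 5.14% ± 0.09 in Sen, compared with 3.72% ± 0.08 in Res, 3.80% ± 0.08 in Res_Ctrl and 4.36% ± 0.05 in Res_shFabp7 (SD, n = 3).

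H3K9ac gave the same order of groups. Chromosome 6 held 4.87%, 4.90% and 4.87% of the H3K9ac tags in Sen, 3.74%, 3.78% and 3.69% in Res, 3.75%, 3.86% and 3.90% in Res_Ctrl, and 4.19%, 4.25% and 4.20% in Res_shFabp7. The difference of the means was -1.14 percentage points for Res minus Sen and 0.37 for Res_shFabp7 minus Res_Ctrl. For H3K27ac these differences were -1.42 and 0.56. Res_Ctrl minus Res was 0.08 points for H3K27ac and 0.10 for H3K9ac, and these groups overlapped for both marks. No test is given for the shares.

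**Figure D1:**
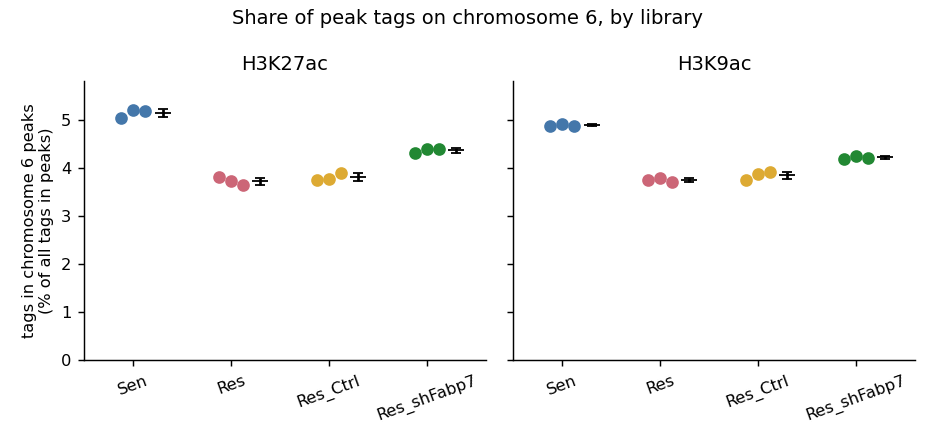
Percent of each library's tags in peaks that lie on chromosome 6 (vertical axis, from 0), for H3K27ac at left and H3K9ac at right. Each point is 1 library, and the black bar with whiskers is the group mean ± SD (n = 3). The Sen libraries sit at 5.03% to 5.20% for H3K27ac and the Res libraries at 3.64% to 3.80%.

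The chromosome's percent of peaks moved less than its percent of tags. Chromosome 6 held 5.15% ± 0.05 of the H3K27ac peaks in Sen, compared with 4.58% ± 0.05 in Res, 4.60% ± 0.08 in Res_Ctrl and 4.89% ± 0.02 in Res_shFabp7 (SD, n = 3). For H3K9ac these shares were 4.99% ± 0.01, 4.49% ± 0.04, 4.48% ± 0.09 and 4.71% ± 0.03. The length called in the tested regions moved too. Of the called length of all tested H3K27ac regions, 4.73% ± 0.03 was on chromosome 6 in Sen, compared with 4.12% ± 0.07 in Res, 4.15% ± 0.04 in Res_Ctrl and 4.43% ± 0.03 in Res_shFabp7. Tags were counted by the authors inside each library's own called interval, so a wider interval and a taller one both raise a region's tags.

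Levels of single regions are given as scaled tags, which are tags per 1e6 tags of the library in the tested regions after TMM scaling set on all chromosomes, and changes are log2 ratios from edgeR's quasi-likelihood test with Benjamini-Hochberg adjustment over all tested regions of the mark. In Res against Sen the median change over the 543 H3K27ac regions was -0.34 (quartiles -0.56 and -0.12), a level 1.27-fold lower, and 82.0% of the regions lay below 0. Over the 461 H3K9ac regions it was -0.30 (quartiles -0.48 and -0.15), 1.24-fold lower, with 87.2% below 0. The median of the regions on all other chromosomes was 0.01 for H3K27ac and 0.00 for H3K9ac. Both chromosome 6 medians were the lowest of 20 chromosomes.

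The decrease was similar at regions near a gene's start or end and at regions farther from both, some of them inside genes. The H3K27ac median was -0.35 over the 334 regions within 1 kb of an end of a protein-coding gene and -0.33 over the 209 others. For H3K9ac it was -0.31 over 371 regions near gene ends and -0.28 over the 90 others. When tags were divided by each library's called length, the medians of all chromosome 6 regions kept their sign and were smaller, -0.14 for H3K27ac and -0.20 for H3K9ac.

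By region, 228 chromosome 6 regions were lower and 34 higher in Res than in Sen for H3K27ac, against 17.3% of all tested regions lower and 20.5% higher. For H3K9ac, 301 regions were lower and 31 higher, against 26.6% and 29.0% of all. The chromosome therefore held 11.3% of the lower H3K27ac calls and 11.1% of the lower H3K9ac calls of the genome, with 4.65% and 4.54% of the tested regions. These counts follow from the change the chromosome was picked for. Set on chromosome 6 regions alone, a scaling chosen after seeing the data that removes the shared shift, the test left 92 H3K27ac regions lower and 71 higher, and 99 H3K9ac regions lower and 87 higher.

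Res_Ctrl cells, compared with Sen, had medians of -0.33 for H3K27ac and -0.26 for H3K9ac on chromosome 6, each the second lowest of 20 chromosomes. In this comparison 199 H3K27ac regions were lower and 3 higher, against 11.1% and 11.4% of all regions. For H3K9ac, 255 were lower and 12 higher, against 16.4% and 19.2%. It shares the Sen libraries with the comparison above.

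Between the 2 resistant groups without knockdown the chromosome's median hardly moved, while single regions did. Res_Ctrl against Res had medians of -0.03 for H3K27ac and 0.05 for H3K9ac. For H3K27ac 85 regions were higher and 76 lower, against 17.4% and 21.6% of all. For H3K9ac 98 were higher and 54 lower, against 24.7% and 25.4%.

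Knockdown of Fabp7 in resistant cells went with a rise of the chromosome's level. In Res_shFabp7 against Res_Ctrl the median change was 0.15 for H3K27ac (quartiles 0.01 and 0.28), with 24.1% of the regions below 0, and 0.08 for H3K9ac, with 25.2% below 0. Both were the second highest of 20 chromosomes, after X. The median of all other chromosomes was -0.01 and 0.00. The H3K27ac median was 0.16 near gene ends and 0.12 elsewhere, and for H3K9ac these were 0.10 and 0.06. The chromosome's medians per called base were 0.06 and 0.04.

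Few single regions passed the test after knockdown. For H3K27ac, 10 chromosome 6 regions were higher and 1 lower, against 0.437% and 1.02% of all tested regions. For H3K9ac, 30 were higher and 4 lower, against 2.61% and 4.71%. The chromosome held 19.6% of the higher H3K27ac calls and 11.3% of the higher H3K9ac calls. The H3K27ac count of higher regions was 1 to 5 when any 1 of the 6 libraries was left out, and with the replicate number as a block 33 regions were higher and 7 lower. DESeq2 called 25 higher and 5 lower. The H3K9ac count of higher regions was 12 to 32 when 1 library was left out, with 17 without Res_Ctrl replicate 2 and 16, 14 and 12 without Res_shFabp7 replicates 1, 2 and 3.

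**Figure D2:**
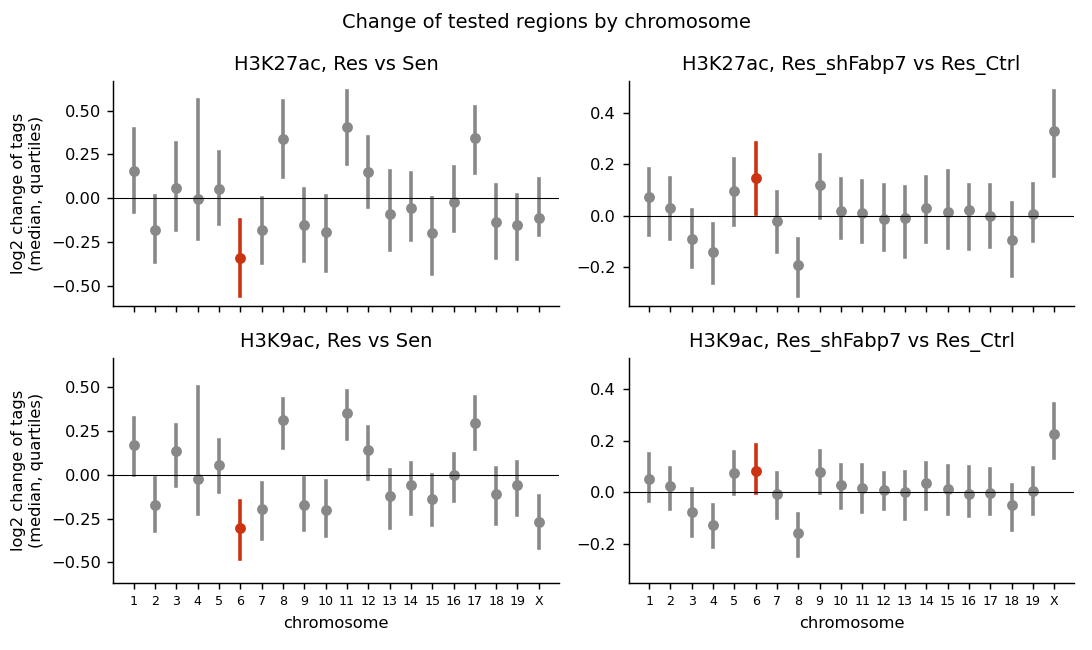
Median log2 change of the tested regions of each chromosome (points) with the quartiles (bars), for Res against Sen at left and Res_shFabp7 against Res_Ctrl at right, with H3K27ac above and H3K9ac below. Chromosome 6, in red, has medians of -0.34 and -0.30 at left and of 0.15 and 0.08 at right.

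The regions higher with knockdown were set beside those lower in Res than in Sen, 2 comparisons that share no library. Of the 30 H3K9ac regions higher with knockdown, 24 (80%) were among the 301 lower in Res, beside 65.3% of all tested H3K9ac regions of the chromosome, and 1 was among the 31 higher. These 24 were 7.97% of the 301. Of the 10 H3K27ac regions, 5 (50%) were among the 228 lower in Res (2.19% of these), beside 42.0% of all tested H3K27ac regions of the chromosome, and 0 among the 34 higher. Whether these shares differ was not tested.

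Along the chromosome the change in Res was spread over its whole length. The tags of the tested regions were summed in windows of 5 Mb, and 27 windows of chromosome 6 held 3 or more regions. In Res against Sen the summed H3K27ac change ran from -0.81 to 0.02 and was below 0 in 26 windows, and 22 windows were lower and 0 higher, against 32.0% lower and 35.4% higher over 466 windows of the genome. For H3K9ac it ran from -0.51 to -0.01, below 0 in all 27 windows, and 25 windows were lower and 0 higher, against 43.7% and 41.0% of 476. At an unadjusted edgeR p under 0.05 the windows higher in Res also numbered 0 for both marks. The number of lowered H3K27ac windows depended on counting the regions found in all libraries: with the tags of every peak in a window, 50% of the windows were lower and 10% higher, in place of 81.5% lower.

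By summed change the lowest window of both marks was 40 to 45 Mb. Its 13 H3K27ac regions had a median of -0.73 and a summed change of -0.81 (SE 0.07, edgeR adjusted p = 2.51e-07), and 10 of them were lower. Its 8 H3K9ac regions had a median of -0.43, and 7 were lower. The window from 120 to 125 Mb, which holds Lpcat3, Eno2, Ptpn6, Tpi1, Cdca3 and Lag3, had medians of -0.50 over 37 H3K27ac regions and -0.41 over 33 H3K9ac regions, among the 3 lowest medians of each mark in windows with 5 or more regions. Its summed changes were -0.55 and -0.50. By median the other low H3K27ac window was 55 to 60 Mb (median -0.56), where Aqp1 lies, and the other low H3K9ac window was 45 to 50 Mb (median -0.42). The window from 20 to 25 Mb, with 3 H3K27ac and 4 H3K9ac regions, had medians of -0.51 and -0.44, and 10 to 15 Mb had a summed H3K27ac change of -0.60.

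The window from 130 to 135 Mb had the medians nearest 0 for both marks among windows with 5 or more regions, -0.14 over 10 H3K27ac regions and -0.02 over 11 H3K9ac regions. Next for H3K27ac were 140 to 145 Mb (-0.19) and 145 to 150 Mb (-0.20). Next for H3K9ac were 15 to 20 Mb (-0.08), which holds Met, and 95 to 100 Mb (-0.12). By summed change the order differed: 100 to 105 Mb (0.02) and 105 to 110 Mb (-0.001) were the least lowered for H3K27ac, and 15 to 20 Mb (-0.01) for H3K9ac, beside -0.13 and -0.08 at 130 to 135 Mb. The H3K27ac medians were -0.21 over the 4 regions at 100 to 105 Mb and -0.36 over the 9 at 105 to 110 Mb. The SE of the summed change was 0.11 and 0.096 in these windows.

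Against Sen, Res_Ctrl had 23 lower and 0 higher H3K27ac windows, against 21.2% and 28.8% of the genome's windows, and 26 lower and 0 higher H3K9ac windows, against 31.3% and 35.7%. With knockdown the windows moved the other way. Res_shFabp7 against Res_Ctrl had 10 higher and 0 lower H3K27ac windows, against 7.94% and 9.44%, and 17 higher and 0 lower H3K9ac windows, against 27.9% and 17.9%. With the tags of every peak in a window, 10% of the H3K27ac windows were higher with knockdown in place of 37.0%, and 53.3% were lower in Res_Ctrl than in Sen in place of 85.2%. The counts of 0 here stayed 0 at an unadjusted edgeR p under 0.05. The summed change was above 0 in 25 of the 27 windows for H3K27ac and in 26 of 27 for H3K9ac.

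After knockdown the largest summed H3K27ac rise was at 40 to 45 Mb, the lowest window in Res, with 0.44 (edgeR adjusted p = 0.00064) and 3 of the 10 higher regions. The Arhgef5 region given below is 1 of these 3. The median of the window's 13 regions was 0.18, beside 0.15 over the chromosome. In windows with 5 or more regions the highest H3K27ac medians were at 5 to 10 Mb (0.38), 145 to 150 Mb (0.28) and 140 to 145 Mb (0.27), and the highest H3K9ac medians at 140 to 145 Mb (0.20), 10 to 15 Mb (0.17) and 5 to 10 Mb (0.16). The windows at 65 to 70 Mb and 15 to 20 Mb had the 2 lowest medians of both marks, between -0.07 and 0.03. Across the 27 windows the changes of the marks went together in Res against Sen (Pearson r = 0.59) and with knockdown (r = 0.60), as a description of windows that share genes and groups of cells.

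**Figure D3:**
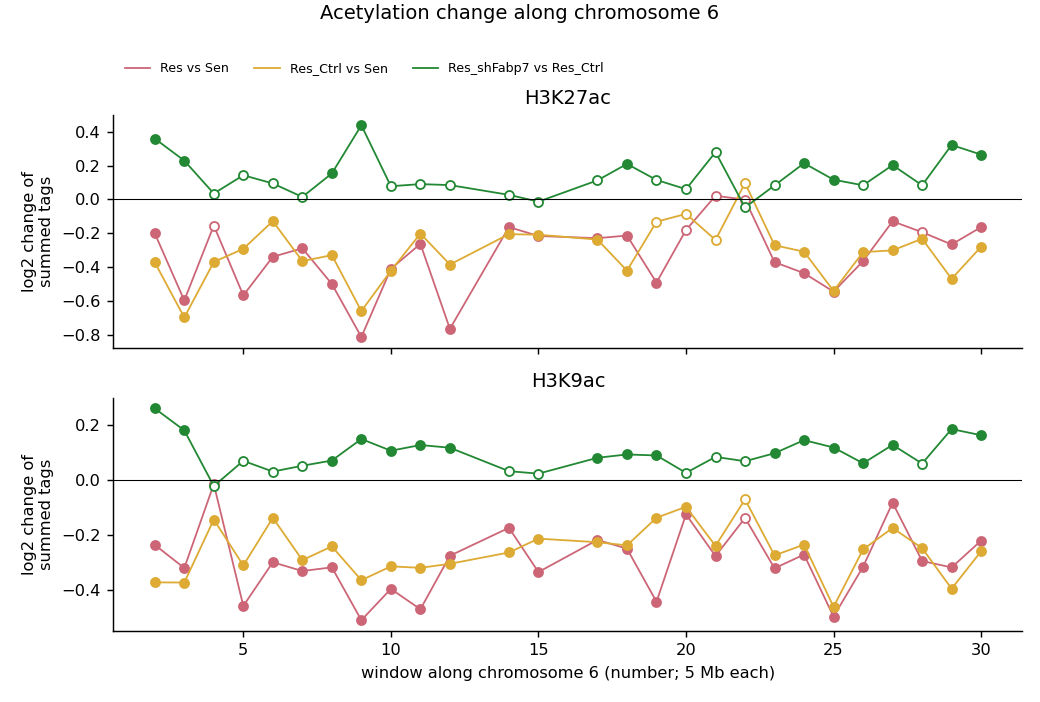
Log2 change of summed tags in 5 Mb windows along chromosome 6 (window number from the start of the chromosome), for H3K27ac above and H3K9ac below. Lines join the windows of 1 comparison, and filled points passed edgeR's adjusted p of 0.05. Window 9 (40 to 45 Mb) is the lowest for Res against Sen, at -0.81 and -0.51.

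Genes were given the region of highest mean scaled tags within 1 kb of either annotated end, which left 375 protein-coding genes of the chromosome for H3K27ac and 421 for H3K9ac. In Res against Sen 169 were lower and 13 higher for H3K27ac, against 13.9% and 19.1% of all genes, and 288 were lower and 21 higher for H3K9ac, against 25.0% and 29.2%. Genes lower for both marks numbered 150, which is 90.4% of the 166 H3K27ac genes and 59.1% of the 254 H3K9ac genes measured for both. Beside these, 68.4% of all tested H3K9ac genes and 45.1% of all tested H3K27ac genes of the chromosome were lower. Whether the shares differ was not tested. Scaled on chromosome 6 alone, 54 of the 169 and 88 of the 288 remained lower, and all 13 and all 21 higher genes remained higher.

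The largest H3K27ac decrease in Res was at Aqp1, the gene of a water channel of epithelial and red cell membranes, in the region chr6:55335355-55343903 that holds its start and the first part of the gene. Scaled tags were 156.9, 163 and 158 in Sen and 36.4, 34.5 and 28.7 in Res. They were 126, 165 and 152 in Res_Ctrl and 104, 129 and 131 in Res_shFabp7. All 3 Res libraries lay below every other library. The change was -2.26 (SE 0.13, edgeR adjusted p = 1.26e-07) in Res against Sen and 2.14 (adjusted p = 1.88e-07) in Res_Ctrl against Res.

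Most of the Aqp1 signal lay inside the gene. Within 1 kb of an end of the gene a peak lay in 2 Sen, 0 Res, 1 Res_Ctrl and 2 Res_shFabp7 libraries. A peak reached the 300 promoter bases shown above in 1 Sen, 0 Res, 0 Res_Ctrl and 2 Res_shFabp7 libraries. For H3K9ac, the same stretch was lost in Res, with 256, 688 and 592 tags in the peaks of the 3 Sen libraries and no peak in the 3 Res libraries. Res_Ctrl replicate 1 also had no peak there, and the other 2 had 178 and 289 tags. The mean called length was 6719 bases in Sen and 2654 in Res for H3K27ac.

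Atoh8, a basic helix-loop-helix transcription factor gene, had the largest H3K27ac increase. A peak lay within 1 kb of an end of the gene in 0 Sen, 3 Res, 0 Res_Ctrl and 0 Res_shFabp7 libraries. The region was thus assigned to the gene only through Res peaks, and its rank among the genes rests on that assignment. In the other libraries the tags came from peaks farther away. In chr6:72231856-72248535, scaled tags were 172, 195 and 200 in Sen and 395, 438 and 333 in Res. Levels were 129, 148 and 156 in Res_Ctrl and 107, 115 and 96.5 in Res_shFabp7. Res lay above all other groups, and the change was 1.04 in Res against Sen (SE 0.11, edgeR adjusted p = 1.44e-05) and -1.43 in Res_Ctrl against Res (adjusted p = 1.39e-06).

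The called interval at Atoh8 was longer in Res. A peak covered the printed promoter in 3 of 3 Res libraries, with 718, 462 and 300 tags in that peak, and in 0 of the 9 other libraries, whose peaks in the region lay wholly upstream of it. The called length was 14093 bases in Res, 6055 in Sen, 5091 in Res_Ctrl and 5302 in Res_shFabp7. The direction turned per called base, to -0.08 (edgeR adjusted p = 0.5).

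Anxa4, the gene of a calcium-dependent phospholipid-binding annexin, had the largest H3K9ac decrease. In chr6:86788439-86794659 scaled tags were 151, 151 and 148 in Sen, 39.6, 43.1 and 40.8 in Res, 75.8, 72.7 and 75.9 in Res_Ctrl and 95.2, 100.1 and 92.7 in Res_shFabp7. The 4 groups did not overlap. Res was lowest, and the knockdown libraries lay between Res_Ctrl and Sen. The change was -1.86 in Res against Sen (SE 0.07, edgeR adjusted p = 9.71e-13) and 0.36 with knockdown (SE 0.07, adjusted p = 0.00284).

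In every library a peak covered the Anxa4 promoter shown above, and its reach differed. The called length was 5824 bases in Sen, compared with 1950 in Res, 2533 in Res_Ctrl and 4556 in Res_shFabp7. Over all tested H3K9ac regions of the chromosome the mean called length was 1480 kb in Sen and 1115 kb in Res. It was 1176 kb in Res_Ctrl and 1417 kb in Res_shFabp7. At Anxa4 the knockdown change turned to -0.27 per called base (edgeR adjusted p = 0.0187). H3K27ac at the gene was lower in Res as well, by -1.77 (SE 0.21, adjusted p = 2.92e-05), and its change with knockdown was 0.55 (adjusted p = 0.229). A second H3K9ac region within Anxa4, chr6:86763362-86767844, was lost, with 291, 803 and 820 tags in Sen and no peak in Res.

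Ccnd2, the gene of the G1 cyclin D2, had the largest H3K9ac increase. A peak lay within 1 kb of an end of the gene in 2 Sen, 3 Res, 0 Res_Ctrl and 0 Res_shFabp7 libraries. In the others the tags came from peaks farther away in the same merged region. In chr6:127148246-127151389 scaled tags were 29.0, 48.2 and 44.4 in Sen, 160, 148 and 150.4 in Res, 26.8, 46.3 and 32.5 in Res_Ctrl and 43.3, 42.0 and 43.9 in Res_shFabp7. The 3 Res libraries were the only high ones. The change was 1.86 in Res against Sen (SE 0.13, edgeR adjusted p = 4.28e-09) and -2.11 in Res_Ctrl against Res (adjusted p = 8.47e-09). Asns, which makes asparagine, had the same shape of change, with H3K9ac levels of 39.0, 41.0 and 41.0 in Sen, 82.9, 97.0 and 78.4 in Res and 29.7, 28.5 and 35.5 in Res_Ctrl. Its change was 1.09 in Res against Sen (SE 0.11, edgeR adjusted p = 1.89e-07).

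Further H3K27ac decreases in Res were found at Slc37a3, of the sugar phosphate carrier family (-2.06), Arhgef5, a guanine nucleotide exchange factor (-1.68), and Ube2h, a ubiquitin-conjugating enzyme (-1.62). Further H3K9ac decreases were at Tgoln1, a protein of the trans-Golgi network (-1.38), Iqsec1, an exchange factor for Arf GTPases (-1.34), C1galt1, which builds core O-glycans (-1.31), and Ing4, a subunit of histone acetyltransferase complexes (-1.30). All 7 passed edgeR's adjusted threshold, and Sen and Res did not overlap at any of them. Per called base the H3K9ac change was 0.03 at Iqsec1 and 0.01 at C1galt1, where the called length fell from 5097 to 1684 and from 4413 to 1469 bases.

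Further increases in Res were smaller. For H3K27ac they were at Zxdc, a zinc finger gene (0.84), Gadd45a, a growth arrest gene of the DNA damage response (0.62), Itpr2, an inositol trisphosphate receptor (0.54), and Emp1, an epithelial membrane protein (0.45). For H3K9ac they were at Parp12, an interferon-induced ADP-ribosyltransferase (0.79), Zfp9 (0.77) and Itpr2 (0.61). The H3K27ac region of Itpr2 lies at the other end of the gene from its H3K9ac region. Single libraries decided the 4 H3K27ac calls: edgeR's adjusted p reached 0.104 at Zxdc, where the call was lost without either of 2 libraries, and 0.0554 at Gadd45a, 0.0502 at Itpr2 and 0.0516 at Emp1, where it was lost without 1. That library was Res replicate 1 or Sen replicate 1 at Zxdc and Res replicate 3 at the other 3 genes. Per called base the change at Emp1 was -0.01.

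**Figure D4:**
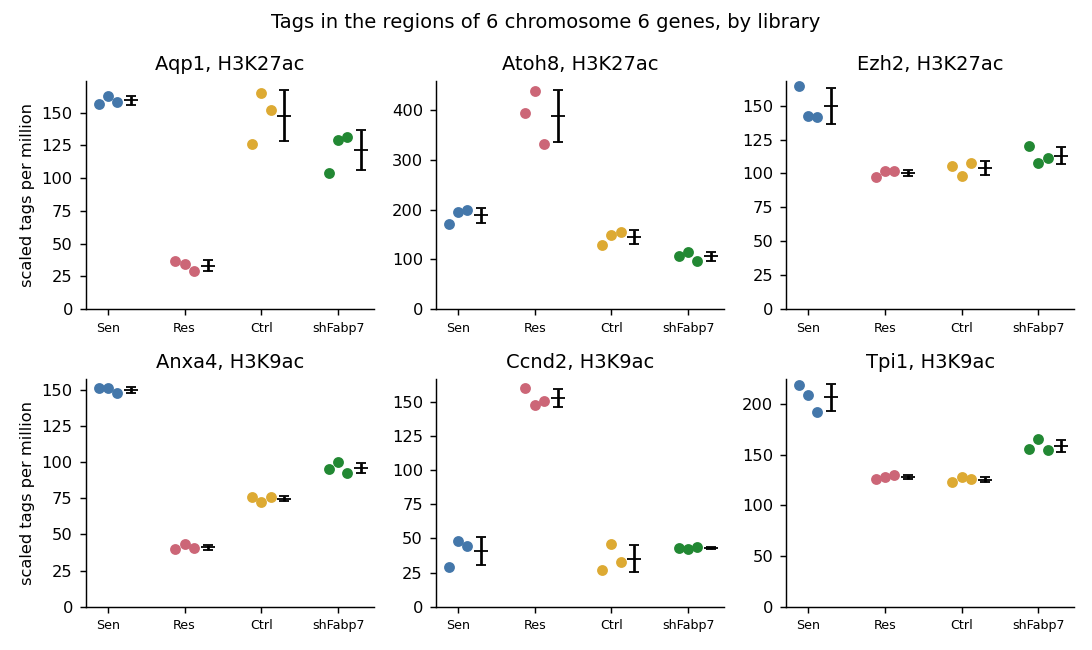
Scaled tags (per 1e6 tags) in the regions of 6 chromosome 6 genes, 1 point per library, with the group mean ± SD (n = 3) as a bar with whiskers (Ctrl is Res_Ctrl, shFabp7 is Res_shFabp7). Res alone is low at Aqp1 and high at Atoh8 and Ccnd2, and at Anxa4 and Tpi1 the knockdown libraries lie between Res_Ctrl and Sen.

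The gene lists that follow are read beside all tested genes of the chromosome, of which 45.1% were lower and 3.47% higher in Res for H3K27ac, and 68.4% and 4.99% for H3K9ac. None of the lists was tested against them, and a share near these is that of the chromosome. Of 14 listed genes of glycolysis and sugar metabolism 6 were tested for H3K27ac, of which 4 were lower and 0 higher, and 9 for H3K9ac, of which 7 were lower and 0 higher. At an unadjusted edgeR p under 0.05 the higher genes of this list, and of the chromatin list below, also numbered 0 for both marks. The list's medians were -0.47 and -0.40, beside -0.35 and -0.31 over all tested genes of the chromosome and -0.02 and -0.01 over all genes. Tpi1, triose phosphate isomerase, shares its region with Spsb2. Its H3K9ac tags were 219, 209 and 192 in Sen, 126, 128 and 130 in Res, 123, 128 and 126 in Res_Ctrl and 155, 165 and 155 in Res_shFabp7. Res and Res_Ctrl overlapped, and the knockdown libraries lay between them and Sen. The change was -0.68 in Res against Sen (SE 0.06, edgeR adjusted p = 3.27e-08) and 0.34 with knockdown (SE 0.06, adjusted p = 0.00294).

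Eno2, the neuronal enolase, whose region also lies by Atn1, was lower for H3K27ac by -0.63 and for H3K9ac by -0.54, and was lower still in Res_Ctrl than in Res, by -0.69 and -0.40, with edgeR adjusted p values of 0.00751, 7.75e-06, 0.00488 and 0.000789 in that order. Scaled on chromosome 6 alone, its changes in Res against Sen were -0.31 (edgeR adjusted p = 0.116) and -0.24 (adjusted p = 0.00749). Gapdh, whose region also lies by Ncapd2, was lower in Res for H3K27ac by -0.57 (adjusted p = 0.000632) and higher in Res_Ctrl than in Res by 0.45 (adjusted p = 0.00294). Cmas, which activates sialic acid, was lower in Res for H3K9ac (-0.64, adjusted p = 0.000456).

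Of the genes of chromatin regulators, 19 of 21 were tested. For H3K9ac all 19 were lower in Res (median -0.38), beside 68.4% of the genes of the chromosome, and for H3K27ac 10 (52.6%) were lower and 0 higher (median -0.40), beside 45.1%. Ezh2, the methyltransferase of Polycomb complex 2, had H3K27ac levels of 165, 143 and 142 in Sen, 97.7, 102 and 102 in Res, 106, 98.1 and 108 in Res_Ctrl and 120, 108 and 112 in Res_shFabp7. Sen was above all other groups, and the change was -0.57 in Res against Sen (SE 0.09, edgeR adjusted p = 0.000299), with -0.51 for H3K9ac (adjusted p = 5.15e-06). Chd4, the remodeller of the NuRD complex, was lower by -0.64 for H3K27ac and -0.93 for H3K9ac. Mbd4, a DNA glycosylase that binds methylated DNA, was lower for H3K9ac by -0.94.

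Genes of RAS and receptor tyrosine kinase signalling were measured at 10 of 17 listed genes for each mark. For H3K27ac 4 (40%) were lower and 0 higher in Res (median -0.27), and for H3K9ac 7 (70%) were lower and 1 higher (median -0.32), shares near those of all genes of the chromosome. Tgfa, a ligand of the EGF receptor, was lower for both marks, by -1.22 and -1.11, and Lrig1, a brake on that receptor, was lower for H3K27ac by -0.59. Scaled on chromosome 6 alone, Tgfa stayed lower for both marks, and the Lrig1 change was -0.27 (edgeR adjusted p = 0.156). The H3K9ac gene that was higher was Met, the receptor for hepatocyte growth factor, with 98.8, 107 and 105 in Sen and 108, 123 and 132 in Res. Its change was 0.23 (SE 0.07, edgeR adjusted p = 0.011). The call was lost without Res replicate 3 (adjusted p = 0.0863). Per called base it turned to -0.17 (adjusted p = 0.0359), and H3K27ac at Met changed by 0.10 (adjusted p = 0.661).

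Genes of lipid metabolism and lipid peroxide defence were tested at 6 of 16 listed genes, with 3 lower and 0 higher in Res for each mark (medians -0.46 and -0.26). Lpcat3, which inserts polyunsaturated fatty acids into membrane phospholipids and is known as a driver of ferroptosis, had H3K27ac levels of 107, 85.2 and 85.5 in Sen, 63.6, 61.4 and 49.7 in Res, 40.3, 40.0 and 37.0 in Res_Ctrl and 52.1, 50.4 and 52.9 in Res_shFabp7. Each group stood apart except that Res and Res_shFabp7 overlapped. The change was -0.65 in Res against Sen (SE 0.12, edgeR adjusted p = 0.00104) and -0.58 in Res_Ctrl against Res (adjusted p = 0.00322). With knockdown it was 0.41 (adjusted p = 0.143). H3K9ac was lower in Res by -0.70 (adjusted p = 4.09e-05).

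Pparg, a fatty acid-activated nuclear receptor, had different regions for the marks. H3K27ac at the end of the gene away from its start was lower in Res by -0.59 (SE 0.13, edgeR adjusted p = 0.00231), and H3K9ac at the start changed by -0.10 (adjusted p = 0.385). Scaled on chromosome 6 alone, these changes were -0.27 (edgeR adjusted p = 0.0811) and 0.21 (adjusted p = 0.0607). Etnk1, which phosphorylates ethanolamine for phospholipid synthesis, was lower by -0.59 and -0.38. On the chromosome 6 scale the Etnk1 changes were -0.28 (edgeR adjusted p = 0.0877) and -0.08 (adjusted p = 0.35). Fabp1, a fatty acid binding protein of the liver, had no peak of either mark near its ends in any library.

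Cell cycle and DNA repair genes gave 6 lower and 3 higher of 17 tested for H3K27ac and 11 lower and 2 higher of 18 for H3K9ac (medians -0.31 and -0.27). Cdca3, a cell cycle gene whose region also lies by Usp5, was lower by -1.02 and -0.82, with H3K27ac levels of 168, 134 and 155 in Sen and 78.9, 71.7 and 73.2 in Res. Cdkn1b, the inhibitor p27, was lower for H3K9ac by -0.21 (edgeR adjusted p = 0.00144), and its H3K27ac change was -0.17 (adjusted p = 0.0704). Scaled on chromosome 6 alone, the H3K9ac change at Cdkn1b was 0.09. Bid, a death agonist of the BCL-2 family, was lower by -0.78 and -0.72. Its H3K27ac call was lost without Res replicate 3 or without Sen replicate 3 (edgeR adjusted p = 0.0519 and 0.057). Scaled on chromosome 6 alone, the Bid changes were -0.46 (edgeR adjusted p = 0.0924) and -0.42 (adjusted p = 0.00543).

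The remaining lists differed in their counts. Stress, translation and RNA-binding genes had 7 lower and 1 higher of 16 for H3K27ac and 13 lower and 2 higher of 16 for H3K9ac. Transcription factors had 2 lower and 2 higher of 11 for H3K27ac and 6 lower and 0 higher of 11 for H3K9ac, and epithelial, membrane and adhesion genes had 4 lower and 1 higher of 12 and 7 lower and 2 higher of 13. Immune and interferon genes had 3 lower and 0 higher of 9 and 5 lower and 2 higher of 12. Of the clock genes, 1 of 2 was lower for H3K27ac and 0 of 2 for H3K9ac. The 1 was Bhlhe41 (-0.28, edgeR adjusted p = 0.04), whose call was lost without 5 of the 6 libraries (adjusted p up to 0.129). Secreted factor, Wnt and matrix genes had 1 higher and 0 lower of 3 for H3K27ac and 1 higher and 1 lower of 3 for H3K9ac, among them Mdfic, which was higher for both marks (0.41 and 0.32). None of the 12 genes of the Hoxa list had a tested region, and 2 had an H3K27ac and 3 an H3K9ac peak near an end in any library.

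In the low window at 120 to 125 Mb lay 2 genes of immune signalling. Ptpn6, the phosphatase SHP-1, in a region shared with Grcc10 and Atn1, was lower for H3K27ac by -1.03 (SE 0.09, edgeR adjusted p = 2.26e-06), and Lag3, a checkpoint receptor of T cells, by -0.98 (SE 0.14, adjusted p = 9.51e-05). H3K9ac at Lag3 was lower by -0.92 (adjusted p = 1.06e-06).

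The microRNA pair printed above lies in a broad acetylated stretch whose nearest protein-coding gene, Klf14, was 96049 bases from the H3K27ac region. For H3K9ac, chr6:31059527-31072937 held 207, 242 and 246 scaled tags in Sen, 107, 93.3 and 127 in Res, 138, 203 and 223 in Res_Ctrl and 207, 214 and 174 in Res_shFabp7. Res was below every other library. The change was -1.10 in Res against Sen (SE 0.13, edgeR adjusted p = 2.61e-06) and 0.81 in Res_Ctrl against Res (adjusted p = 0.000184). H3K27ac merged there into 63864 bases, chr6:31055040-31118903, and was lower in Res by -0.28 (adjusted p = 0.0043). The hairpins Mir8112, in Krcc1, and Mir7045, in Chd4, were in regions lower in Res by -0.72 and -0.64 for H3K27ac and by -0.42 and -0.93 for H3K9ac.

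With Fabp7 knockdown 6 genes of the chromosome were higher and 0 lower for H3K27ac, against 0.320% and 0.560% of all genes (8 lower at an unadjusted edgeR p under 0.05), and 34 were higher and 1 lower for H3K9ac, against 2.28% and 3.68%. Scaled on chromosome 6 alone, 4 of the 6 and 17 of the 34 remained higher. On that scale 4 H3K27ac and 9 H3K9ac genes were lower. Among the H3K27ac genes were Arhgef5 (1.04), Jagn1, an endoplasmic reticulum protein gene (0.76), Casd1, which acetylates sialic acid (0.62), Amn1 (0.62) and Setd5, a SET domain gene (0.50). Leaving out any 1 of the 6 libraries ended the call of Arhgef5, Jagn1, Casd1 and Amn1, with edgeR adjusted p values up to 0.185, and the direction never turned. Setd5 lost its call without Res_Ctrl replicate 3, Res_shFabp7 replicate 2 or Res_shFabp7 replicate 3, and per called base its change was -0.03.

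Arhgef5 was lower in Res than in Sen and higher with knockdown. Its H3K27ac region chr6:43281740-43297399 held 183, 280 and 267 scaled tags in Sen, 94.0, 68.3 and 64.9 in Res, 81.7, 117 and 126 in Res_Ctrl and 189, 219 and 255 in Res_shFabp7. Sen and the knockdown group overlapped, as did Res and Res_Ctrl, and the 2 pairs stood apart. The called length was 10154 bases in Sen, compared with 4221 in Res, 5285 in Res_Ctrl and 12822 in Res_shFabp7.

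For H3K9ac the largest rises with knockdown were at Rassf8, a Ras association domain gene (0.65), Jagn1 (0.62), Bid (0.55), Magohb, of the exon junction complex (0.54), and Osbpl3, an oxysterol-binding lipid transfer protein (0.53). Rassf8 had 70.6, 76.4 and 76.1 in Sen, 51.9, 51.4 and 44.5 in Res, 54.0, 50.4 and 51.6 in Res_Ctrl and 81.0, 83.5 and 80.2 in Res_shFabp7. The knockdown libraries were the highest, and the change was 0.65 (SE 0.08, edgeR adjusted p = 0.000169). Jagn1 had 63.0, 54.6 and 50.6 in Res_Ctrl and 81.3, 84.0 and 90.5 in Res_shFabp7, a change of 0.62 (SE 0.09, adjusted p = 0.000481).

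The called intervals of these regions were longer with knockdown. Over all tested H3K9ac regions of the chromosome the mean called length was also longer. It was 1176 kb ± 141 in Res_Ctrl and 1417 kb ± 62.7 in Res_shFabp7 (SD, n = 3). Whether the named regions widened more than the others was not tested. The called length rose from 1801 to 3861 bases at Rassf8, from 1543 to 3429 at Jagn1, from 1426 to 2473 at Bid and from 2781 to 6485 at Osbpl3. Per called base the change turned to -0.24, -0.32, -0.04 and -0.47 in that order. In Res against Sen, where Rassf8 was lower by -0.61, its change per called base was 0.22. Leaving out 1 library ended the H3K9ac call of Bid for 3 of the 6 libraries and that of Magohb for 4. The 1 lower gene was Scrn1 (-0.52, edgeR adjusted p = 0.0118), whose call was lost without Res_shFabp7 replicate 1 (adjusted p = 0.0523).

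By list, the H3K9ac genes higher with knockdown were 4 of 18 cell cycle and DNA repair genes, 3 of 10 RAS and receptor tyrosine kinase genes, and 1 each of the glycolysis, lipid, chromatin, transcription factor and epithelial lists, with 0 lower in each list. Of all 421 tested H3K9ac genes of the chromosome 8.08% were higher, and the lists were not tested against them. For H3K27ac 1 of 19 chromatin genes, Setd5, and 1 of 10 RAS and receptor tyrosine kinase genes were higher. The share over all 375 tested H3K27ac genes of the chromosome was 1.6%. Named among the H3K9ac genes were Foxm1 (0.22), Rad51ap1 (0.30), Iqsec1 (0.47), Etnk1 (0.30) and Ing3 (0.32). Per called base the change at Foxm1, Iqsec1, Etnk1 and Ing3 was -0.18, -0.19, -0.06 and -0.11. Each of these 5 calls was lost without at least 3 of the 6 libraries, with edgeR adjusted p values up to 0.142. All 5 calls were also lost when scaled on chromosome 6 alone (edgeR adjusted p from 0.0558 to 0.117).

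The marks moved together at genes measured for both. Over 364 genes Pearson's r between the H3K27ac and H3K9ac changes was 0.80 in Res against Sen and 0.54 with knockdown, as a description over genes that are not independent and whose 2 marks were read in the same groups of cells. With knockdown 3 genes were higher for both marks, which is 60% of the 5 H3K27ac genes and 9.09% of the 33 H3K9ac genes measured for both. Beside these, 8.08% of all tested H3K9ac genes and 1.6% of all tested H3K27ac genes of the chromosome were higher.

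**Figure D5:**
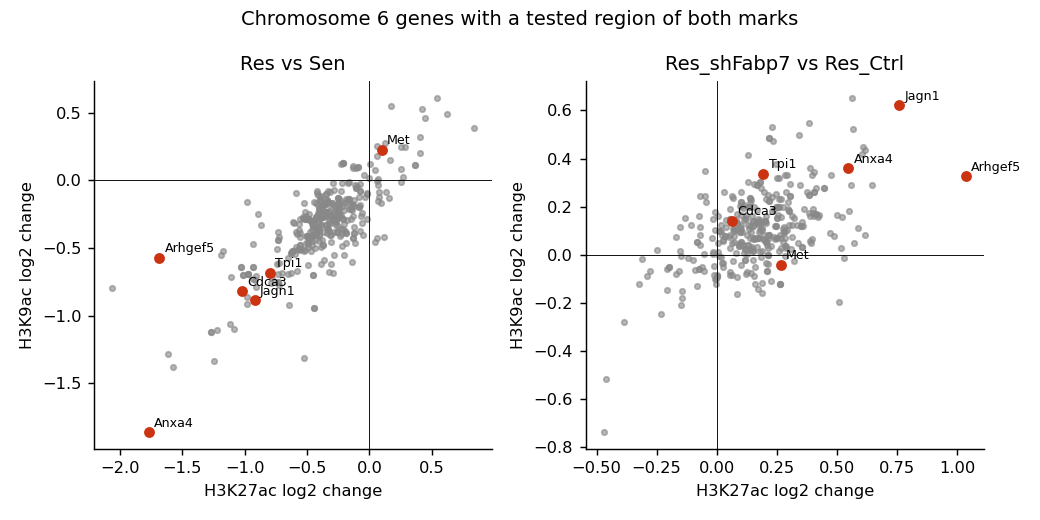
Log2 change of H3K9ac (vertical) against that of H3K27ac (horizontal) for 364 chromosome 6 genes with a tested region of both marks, in Res against Sen at left and Res_shFabp7 against Res_Ctrl at right. Each point is a gene, 6 genes are named in red, and r is 0.80 at left and 0.54 at right.

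Regions present in 3 of 3 libraries of 1 group and 0 of 3 of the other add sites that have no count in all libraries. In Res against Sen 56 of the 1338 chromosome 6 H3K27ac regions of these groups (4.19%) were gained and 65 (4.86%) lost, against 5.98% gained and 3.35% lost of 26993 in the genome. For H3K9ac 12 of 905 (1.33%) were gained and 145 (16.0%) lost, against 2.24% and 11.9% of 18184. Of the 56 gained, 39 had a peak in 0 of 3 Res_Ctrl libraries and 5 in 3 of 3. Of the 145 lost H3K9ac regions, 66 were also absent from all 3 Res_Ctrl libraries and 94 were present in all 3 Res_shFabp7 libraries.

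The gained H3K27ac regions with the most tags were chr6:84177781-84184631 within Dysf, a membrane repair gene, with 657, 526 and 433 tags in Res, chr6:4486836-4491195, 14422 bases from the collagen gene Col1a2, with 388, 330 and 333, and chr6:122701299-122704595, 2893 bases from Nanog, a pluripotency factor gene, with 352, 239 and 224. None of the 3 had a peak in Sen or Res_Ctrl. Among the lost H3K27ac regions with the most tags were 1 within the autophagy gene Atg7 (59, 518 and 417 tags in Sen) and 1 lying 2013 bases from Foxp1, a forkhead transcription factor gene (140, 434 and 394), and both had peaks in every Res_Ctrl library.

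For H3K9ac, among the gained regions with the most tags were 1 within Foxp1 (194, 232 and 232 tags in Res) and 1 at an end of Bcat1, a branched-chain amino acid transaminase gene (175, 251 and 205). The lost ones were another region of Foxp1 (418, 1079 and 1105 in Sen), the Anxa4 region and the Aqp1 region given above. Leaving out a library loosens the rule for gained and lost regions, so it can only keep or raise their counts. Without Sen replicate 1, the library with the fewest H3K27ac tags, the lost H3K27ac regions numbered 197 in place of 65. With the same number of peaks taken from each library, the lost H3K9ac regions fell from 145 to 54.

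With knockdown 60 of 1431 chromosome 6 H3K27ac regions (4.19%) were gained and 1 (0.0699%) lost, near the genome's 3.95% and 0.0985% of 29430. For H3K9ac 66 of 888 (7.43%) were gained and 0 lost, against 4.86% and 0.0262% of 19074. Of the 66 gained H3K9ac regions 29 had a peak in all 3 Sen and 7 in all 3 Res libraries. The gained regions with the most tags lay 56279 bases from Slc35b4, 4614 bases from Add2 and within Add2 for H3K27ac, and 14246 bases from Bms1, 99190 bases from Emp1 and 3566 bases from Foxp1 for H3K9ac. The lost H3K27ac region was within Antxr1, an anthrax toxin receptor gene. The knockdown libraries had more peaks in all, 23131 to 28934 for H3K27ac against 19965 to 22982 in Res_Ctrl, and with the same number of peaks taken from each library the gained regions fell to 27 for H3K27ac and 12 for H3K9ac. Leaving out a library can only keep or raise the gained counts. For H3K27ac the count was 183 without Res_shFabp7 replicate 1, 115 without Res_Ctrl replicate 3 and 93 without Res_Ctrl replicate 1. For H3K9ac it was 148 without Res_Ctrl replicate 3.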

How the data were processed

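H3K27ac and H3K9ac were profiled by chromatin immunoprecipitation and sequencing of 50-base single reads in 24 libraries, 3 for each of 4 groups and each mark. The 4 input libraries were not used here. Per the submitters' processing notes, reads were aligned with Bowtie 1.1.2 to mm10 and peaks called with MACS 1.4.2, 1 list per library. Per the file headers, each peak has a deposited count of tags, a score (the peak caller's scaled minus log10 of p, at least 50 in every file) and a fold enrichment, a ratio that was not tested here.

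Peaks of the 12 libraries of a mark that shared 1 base or more were merged with GenomicRanges 1.54.1. Regions with a peak in all 12 were tested on summed tag counts with edgeR 4.0.16 (quasi-likelihood test, TMM over all chromosomes, 1 fit over 4 groups, Benjamini-Hochberg threshold 0.05), and windows of 5 Mb in the same way. The SE is the log2 change over the root of F. Genes are RefSeq protein-coding genes (GRCm38.p6). On simulated counts, edgeR recovered 34 of 100 regions changed 1.5-fold and 99 of 100 changed 2-fold, among 11679 H3K27ac regions in Res against Sen, with 8 false calls. Among 10149 H3K9ac regions it recovered 46 and 98, with 10 false calls. The simulated counts had the same fixed dispersion in every region of both marks, which was not estimated from these data. These rates are therefore not the power of the test here.

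Named were, per mark, the 5 largest increases and decreases past the threshold without overlap of the groups, up to 3 members of each gene list, Met, Pparg, Fabp1, Lpcat3, Cdkn1b and Ezh2, the 3 gained or lost regions with the most tags, and the 3 highest and lowest windows with 5 or more regions. Some items this rule named are not reported here. Members and lists were chosen with earlier results of these data known. Same-numbered H3K27ac libraries deviated together in Res_shFabp7 and Res_Ctrl (correlations 0.42, 0.188 and 0.235) and in Res_Ctrl and Res (0.383, 0.102 and 0.105). Values were similar in Res_Ctrl and Sen (0.334, 0.0938 and 0.186) and in Res and Sen (0.275, 0.0724 and 0.136). Only in Res_shFabp7 and Res_Ctrl did every library correlate best with its own number. The labels say nothing of a shared batch. Alternatives are given in the closing section.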

Additional observations from a re-analysis of the deposited data

How the results depend on the processing

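Tags were counted by the authors inside each library's own peaks, so a change in called length and a change in tag density enter the same count, and sites without a peak have no count. TMM scaling sets the level of the whole genome, so a change shared by all chromosomes cannot be seen. The lung lineage genes Nkx2-1 and Napsa had no peak within 1 kb of an end, while Sftpc had one in all 12 libraries of each mark. Of 792 values recomputed for 64 results on shares, medians, counts and windows, 662 kept their direction and their side of the threshold or stayed within the stated margin. For the named genes, 1999 values were recomputed for 107 results, of which 1804 kept direction and call, 159 lost the call, 18 gained it and 18 reversed. Scaling on chromosome 6 alone, and the alternatives for the share of tags, were added after seeing the data. Where a value below moved, the cause was not tested. All counts are of edgeR calls at an adjusted p of 0.05 unless another tool is named, and medians are log2 changes over the tested regions of chromosome 6.

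Dividing tags by called length brought the medians nearer to 0. For Res against Sen they were -0.14 for H3K27ac and -0.20 for H3K9ac, in Res_Ctrl against Sen -0.13 and -0.15, in Res_Ctrl against Res 0.0029 for H3K27ac in place of -0.03, and with knockdown 0.063 and 0.044. Higher regions then numbered 15 for H3K27ac in Res against Sen, 56 and 60 for the marks in Res_Ctrl against Res, 5 and 21 in Res_Ctrl against Sen, and 17 and 19 with knockdown. Lower regions numbered 38 and 32 in Res_Ctrl against Res, 101 for H3K27ac in Res_Ctrl against Sen, and 11 and 16 with knockdown. Per called base these named H3K9ac changes with knockdown reversed: Anxa4 -0.27, Bid -0.040, Etnk1 -0.061, Foxm1 -0.18, Ing3 -0.11, Iqsec1 -0.19, Jagn1 -0.32, Osbpl3 -0.47 and Rassf8 -0.24. So did H3K27ac with knockdown at Setd5 (-0.027), H3K27ac in Res against Sen at Atoh8 (-0.081) and Emp1 (-0.0091), and H3K9ac in Res against Sen at C1galt1 (0.0057), Iqsec1 (0.030), Met (-0.17) and Rassf8 (0.22). Scaled on chromosome 6 alone, Bhlhe41 H3K27ac was 0.034 and Cdkn1b H3K9ac 0.091 in Res against Sen.

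The small H3K27ac median of Res_Ctrl against Res turned to 0.00041 with DESeq2, 0.011 with TMM set without chromosome 6, 0.020 with equal numbers of peaks, 0.013 with an intensity trend as offset, 0.0072 over regions with a mean of 100 or more tags, 0.0071 with an overlap of 200 bases and 0.022 with peaks of score 100 or more. The H3K27ac median of Res against Sen was -0.38 with TMM set without chromosome 6 and -0.39 with total tags, where H3K9ac had -0.34. Res_Ctrl against Sen had H3K27ac medians of -0.31 with equal numbers of peaks, -0.30 over the regions of the 6 libraries compared, -0.30 with score 100 or more and -0.36 with total tags, where H3K9ac had -0.29.

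With DESeq2, 5 H3K27ac regions were higher in Res_Ctrl than in Sen, and with knockdown 25 were higher and 5 lower. Over the regions of the 6 libraries compared these counts were 5, 23 and 7. With equal numbers of peaks, Res against Sen gained 21 and lost 54 H3K9ac regions. The knockdown then gained 27 and lost 5 H3K27ac regions, gained 12 and lost 2 H3K9ac regions, and had 2 lower H3K27ac regions. Res_Ctrl had 7 higher H3K9ac regions than Sen and 43 lower H3K27ac regions than Res. The share differences were then -1.08 points for H3K9ac in Res minus Sen, 0.0042 for H3K27ac in Res_Ctrl minus Res and -1.43 in Res_Ctrl minus Sen. With score 100 or more, 17 H3K27ac and 18 H3K9ac regions were higher in Res than in Sen, 43 H3K27ac regions were lost there, 40 were lower in Res_Ctrl than in Res, 5 were higher and 0 lost with knockdown, and the knockdown share difference was 0.65 points.

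With the tags of every peak in a 5 Mb window, H3K27ac windows were 10% higher and 50% lower in Res against Sen, 3.33% higher and 53.3% lower in Res_Ctrl against Sen, 3.33% higher in Res_Ctrl against Res and 10% higher with knockdown, and H3K9ac windows were 14.3% higher and 7.14% lower in Res_Ctrl against Res. With windows of 10 Mb these last shares were 53.3% and 26.7%, and with windows of 2.5 Mb 2.38% of the H3K27ac windows were higher in Res than in Sen.

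The replicate number as a block gave 33 higher and 7 lower H3K27ac regions with knockdown, and 21 higher and 26 lower when scaled on chromosome 6 alone. In Res_Ctrl against Sen it gave 13 higher H3K27ac regions, where the numbers were not shown to pair the libraries. The block moved no other count of chromosome 6 regions past 1.5 times the reported one. For H3K9ac with knockdown same-numbered libraries had correlations of 0.0202, 0.0425 and -0.0445, so these share only a number.

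Leaving out 1 library at a time gave an H3K27ac median of -0.38 to -0.32 in Res against Sen and -0.037 to 0.013 in Res_Ctrl against Res. Higher H3K27ac regions in Res against Sen numbered 21 to 31 and the lost ones 66 to 197. Counts of gained and lost regions can only stay or rise when a library is left out. In Res_Ctrl against Sen 4 to 7 H3K27ac regions were higher and 132 to 183 lower. With knockdown the H3K27ac counts were 1 to 5 higher, 0 lower each time, 62 to 183 gained and 1 to 2 lost, and the H3K9ac counts 12 to 32 higher, 2 to 6 lower and 66 to 148 gained. Scaled on chromosome 6 alone, they were 2 to 6 higher and 2 to 10 lower for H3K27ac and 6 to 20 higher and 5 to 15 lower for H3K9ac. Of the H3K27ac windows, 18.5% to 37.0% were higher and 11.1% to 22.2% lower in Res_Ctrl against Res.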
